A study of Mus musculus with 9 samples.

Results

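The D cyclins, their kinases Cdk4 and Cdk6, the inhibitors of these kinases and the pocket proteins they phosphorylate were followed in B-cell lymphomas of mice. The 10 genes were taken by symbol from the 41128 rows of the count table: Ccnd1, Ccnd2, Ccnd3, Cdk4, Cdk6, Cdkn1b, Cdkn2c, Cdkn2d, Rb1 and Rbl1. All 10 passed the filter on low counts, as did 14057 genes in total. RNA of 9 tumors was sequenced, 1 library per tumor, from 3 Bcl6 and 6 Smc3/Bcl6 mice. Both genotypes carry the IµBcl6 transgene, which keeps Bcl6 expressed from the immunoglobulin heavy chain locus in B cells, and 1 Cγ1-Cre allele, which acts in B cells of the germinal center. Bcl6 mice are Smc3 wt/wt and Smc3/Bcl6 mice are Smc3 wt/-, with 1 allele of the cohesin subunit Smc3 deleted by this Cre. By its label, replicate 1 of each genotype is a mesenteric lymph node tumor and the rest are lymph node tumors. The paper describes the sequenced cells of both genotypes as from mesenteric lymph node lymphomas, so the labels may not mark different sites. Ages were not given in the sources used here.

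A resting cell enters the cell cycle when a D cyclin binds Cdk4 or Cdk6 and this complex phosphorylates the retinoblastoma protein and its relatives, which releases E2F transcription factors to switch on genes of DNA replication. Inhibitors of the INK4 family (Cdkn2a, Cdkn2b, Cdkn2c and Cdkn2d) bind the kinases themselves, whereas those of the CIP/KIP family (Cdkn1a, Cdkn1b and Cdkn1c) bind cyclin-kinase complexes. In the germinal center, cyclin D3 drives the divisions of centroblasts in the dark zone, cyclin D2 is induced by antigen receptor signals in B cells and is repressed by Bcl6, and cyclin D1 is hardly used by normal B cells.

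Total counts per library ranged from 10156728 to 17774577. Smc3 itself had 88.1 to 126 CPM (reads scaled to library size with TMM factors) in Bcl6 tumors, 27.9 CPM in Smc3/Bcl6 tumor 2 and 89.7 to 111 CPM in the other 5 Smc3/Bcl6 tumors, so that its level did not separate the genotypes (log2 fold change -0.19, standard error, SE, 0.38, edgeR adjusted p = 1). A count over the whole gene does not show whether a part of 1 allele was removed, and whether it was could not be read from these counts. The paper reports reduced Smc3 mRNA in Smc3/Bcl6 tumors, measured by RT-qPCR, a method other than sequencing. Smc3/Bcl6 tumor 2 stood apart, with low counts of many long genes and high counts of many short ones, and the comparisons of the 10 genes that turn on it are also given without it. B-cell markers were present in every tumor (summed over 8 genes, 2805 to 8820 CPM in Bcl6 and 4782 to 10602 CPM in Smc3/Bcl6 tumors). The libraries also held RNA of other cells, with summed T-cell markers (7 genes) from 27.8 to 1768 CPM, macrophage markers (7 genes) from 154 to 3005 CPM and erythroid markers (6 genes) from 38.7 to 11292 CPM. Erythroid markers ranged from 38.7 to 1289 CPM in Bcl6 and from 109 to 11292 CPM in Smc3/Bcl6 tumors, and neutrophil markers (6 genes) from 17.7 to 1643 and from 8.69 to 666 CPM. By the thresholds of the study, 2 of 6 erythroid markers were higher and 2 of 6 neutrophil markers lower, beside 2.15% of all genes tested. These thresholds are p under 0.1 before adjustment and a log2 fold change beyond 0.56 in either direction. The study applied them with DESeq2, and here they were applied with edgeR unless another tool is named. The part of these cells in the genotype differences was not tested. Germinal center markers (7 genes) summed to 305 to 767 CPM and 255 to 714 CPM, with Rgs13 at 0 in Smc3/Bcl6 tumor 5. In such bulk samples, fewer cells of a type and less RNA per cell cannot be told apart.

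The promoter windows of Cdk4, the member with the highest level per length in most tumors, and of Rbl1, the member with the largest genotype difference, are shown from RefSeq (GRCm38.p6). Each window runs from 250 bases before to 50 bases after the annotated start of transcription, on the strand of the gene. Capitals mark the E-box CACGTG, the letters bound by Myc and related factors, and the E2F letters TTTCGCGC or TTTGGCGC, searched on both strands. Cdk4 lies at chr10:127063285-127063584 (plus strand) and Rbl1 at chr2:157204485-157204784 (minus strand).
Cdk4: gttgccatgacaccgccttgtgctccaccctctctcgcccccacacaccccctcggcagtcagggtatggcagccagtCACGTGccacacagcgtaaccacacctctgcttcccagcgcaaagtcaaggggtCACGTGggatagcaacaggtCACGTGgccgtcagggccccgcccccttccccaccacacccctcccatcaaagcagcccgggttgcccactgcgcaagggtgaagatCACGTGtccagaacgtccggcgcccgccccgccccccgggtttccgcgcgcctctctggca
Rbl1: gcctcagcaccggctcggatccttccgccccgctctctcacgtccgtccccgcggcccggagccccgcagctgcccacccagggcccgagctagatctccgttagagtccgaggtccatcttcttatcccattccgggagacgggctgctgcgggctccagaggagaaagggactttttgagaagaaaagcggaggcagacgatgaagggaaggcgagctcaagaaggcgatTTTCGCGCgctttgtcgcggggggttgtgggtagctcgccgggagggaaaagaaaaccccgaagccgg
The Cdk4 window held 4 E-boxes and no E2F match, and the Rbl1 window held 1 E2F match and no E-box. Over 32851 windows of all genes, 7.15% held at least 1 E-box, 0.0244% held at least 4 and 0.813% held at least 1 E2F match. RefSeq windows were at hand for 7 of the 10 genes (9 windows). Those of Cdk6 and Cdkn2c, the latter in 1 of its 2 windows, held 1 E-box each, and those of Ccnd3, Cdkn1b and Cdkn2d held neither motif. These matches describe letters in a short window and are not binding data.

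Values per tumor follow the tumor numbers, 1 to 3 for Bcl6 and 1 to 6 for Smc3/Bcl6. The D cyclins were led by Ccnd2 and Ccnd3 in every tumor, with Ccnd1 far below both. Ccnd2 (ENSMUSG00000000184.9, GRCm38 chromosome 6, 127125162 to 127152193) had 225, 312 and 330 CPM in the 3 Bcl6 tumors and 316, 428, 343, 161, 559 and 693 CPM in the 6 Smc3/Bcl6 tumors. Smc3/Bcl6 tumors 5 and 6 had the highest values and Smc3/Bcl6 tumor 4 the lowest, so that the Bcl6 tumors lay inside the range of the other genotype. The means were 289 ± 56.1 CPM (SD, n = 3) and 416 ± 189 CPM (SD, n = 6), with a log2 fold change of Smc3/Bcl6 over Bcl6 tumors of 0.53 (SE 0.42, 95% interval -0.41 to 1.47, edgeR adjusted p = 1, exact two-sided permutation p = 0.405). This value moved with single tumors, from 0.31 without Bcl6 tumor 1 and 0.32 without Smc3/Bcl6 tumor 6 to 0.67 without Smc3/Bcl6 tumor 4, the only one of these 9 fits past the thresholds of the study, and it was 0.30 when tumors with the same replicate number were paired (the replicate block).

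Ccnd3 (ENSMUSG00000034165.11, chromosome 17, 47505051 to 47599691) had 70.4, 94.5 and 128 CPM in the 3 Bcl6 tumors and 65.3, 178, 162, 161, 57.2 and 108 CPM in the 6 Smc3/Bcl6 tumors. The Smc3/Bcl6 tumors fell on both sides of the Bcl6 tumors, with tumors 2, 3 and 4 above all of them and tumors 1 and 5 below. The means were 97.6 ± 28.8 CPM (SD, n = 3) and 122 ± 52.8 CPM (SD, n = 6), with a log2 fold change of 0.32 (SE 0.41, 95% interval -0.60 to 1.24, adjusted p = 1, exact permutation p = 0.619). Left-out tumors moved it from 0.055 without Bcl6 tumor 1 to 0.56 without Bcl6 tumor 3, with 0.18, 0.17 and 0.19 without Smc3/Bcl6 tumors 2, 3 and 4, and it was 0.56 with an offset for exon length and did not pass the thresholds in any of these fits. Summed T-cell markers were 1744 and 1417 CPM in Bcl6 tumors 2 and 3 and 1768 and 1634 CPM in Smc3/Bcl6 tumors 2 and 3, against 27.8 to 571 CPM in the other 5 tumors. Smc3/Bcl6 tumor 4, which had high Ccnd3 with 87.6 CPM of T-cell markers, had the highest sum of erythroid markers, 11292 CPM. The part of these cells in the Ccnd3 level was not tested.

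Ccnd1 (ENSMUSG00000070348.4, chromosome 7, 144929931 to 144939925) had 1.68, 3.19 and 6.33 CPM in the 3 Bcl6 tumors and 1.80, 1.27, 6.32, 2.66, 8.45 and 9.46 CPM in the 6 Smc3/Bcl6 tumors. These values rest on 12 to 142 reads, and the lowest, in Smc3/Bcl6 tumor 2, has an exact 95% Poisson interval of 0.656 to 2.22 CPM, which covers counting error only. Levels differed between tumors of the same genotype by more than this counting error, and the genotypes overlapped. The estimated log2 difference of Smc3/Bcl6 from Bcl6 tumors was 0.42 (SE 0.73, 95% interval -1.21 to 2.06, adjusted p = 1, exact permutation p = 0.810), and it was -0.42 with the replicate block. It was 0.013 without Bcl6 tumor 1, 0.27 without Bcl6 tumor 2 and 1.03 without Bcl6 tumor 3, and 0.21 and 0.14 without Smc3/Bcl6 tumors 5 and 6, past the thresholds in none of these fits. Exons of Ccnd1 and of LTO1 on the opposite strand share 1100 bases, those of Ccnd3 and Bysl 361, and those of Ccnd2 and the antisense gene Gm43126 372, and the strand setting of the read counting was not given in the sources used here.

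**Figure D1:**
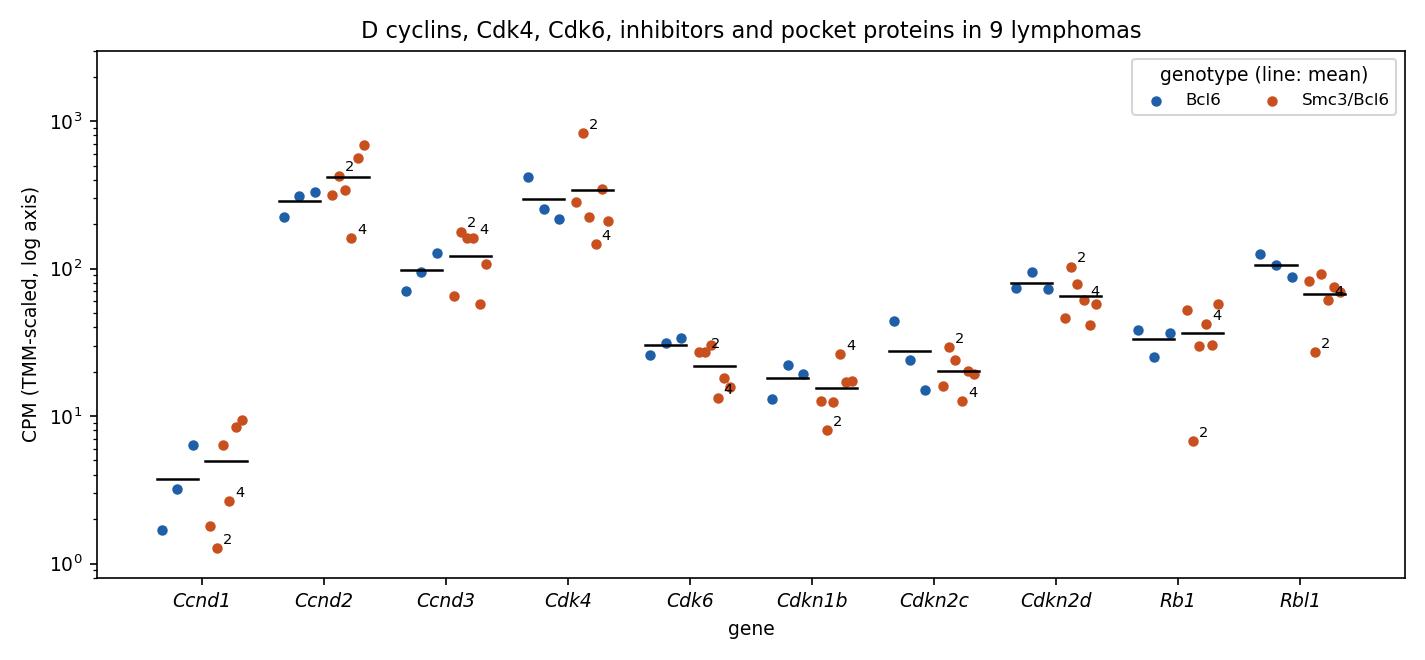
CPM of the 10 genes in each of the 9 tumors on a log axis, with Bcl6 tumors in blue, Smc3/Bcl6 tumors in orange and a line at the mean of each genotype. Smc3/Bcl6 tumors 2 and 4 are numbered. The points of both genotypes overlap for every gene, and Smc3/Bcl6 tumor 2 is highest for Cdk4 (835 CPM) and lowest for Rb1 (6.77 CPM) and Rbl1 (27.3 CPM).

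Which D cyclin dominated was read per length of transcript, as CPM per kilobase (RPKM), since a long transcript yields more reads. Over all annotated exons (9409 bases for Ccnd2, 8775 for Ccnd3, 4709 for Ccnd1), Ccnd2 had 23.9, 33.1 and 35.1 RPKM in the 3 Bcl6 tumors and 33.5, 45.4, 36.4, 17.1, 59.4 and 73.7 RPKM in the 6 Smc3/Bcl6 tumors. Ccnd3 had 8.02, 10.8 and 14.6 RPKM in Bcl6 tumors and 7.44, 20.3, 18.5, 18.4, 6.52 and 12.3 RPKM in Smc3/Bcl6 tumors, in the same order. On this length Ccnd2 was the highest D cyclin in 8 of 9 tumors, in all 3 Bcl6 and 5 Smc3/Bcl6 tumors, and Ccnd3 in Smc3/Bcl6 tumor 4. Ccnd1, at 0.270 to 2.01 RPKM, was the lowest D cyclin in every tumor.

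The exons annotated for Ccnd3 over all its transcripts, 8775 bases, go well beyond its longest transcript, 3858 bases. The order of Ccnd2 and Ccnd3 changed with the length used. Per kilobase of the principal coding transcript (6330 bases for Ccnd2 and 2113 for Ccnd3), a length added after the values had been seen, Ccnd2 was highest in 5 tumors (Bcl6 tumors 1 and 2 and Smc3/Bcl6 tumors 1, 5 and 6) and Ccnd3 in 4 (Bcl6 tumor 3 and Smc3/Bcl6 tumors 2, 3 and 4). Ccnd2 had 35.5, 49.2 and 52.1 RPKM in Bcl6 tumors 1 to 3 on this length, and Ccnd3 had 33.3, 44.7 and 60.5 RPKM, so that their levels lay close together in each Bcl6 tumor. Per kilobase of coding sequence, Ccnd2 was highest in all 9 tumors. That length divides the reads of all exons by the coding bases alone, 927 for Ccnd2 and 993 for Ccnd3. Reads outside the coding sequence thus raise Ccnd2, with the longer transcript, more than Ccnd3. This order is therefore not corrected for transcript length.

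As a share of the summed RPKM of the 3 D cyclins over all exons, Ccnd2 made up 74.1%, 74.3% and 68.8% in the 3 Bcl6 tumors and 81.1%, 68.8%, 64.8%, 47.4%, 87.7% and 83.7% in the 6 Smc3/Bcl6 tumors. The mean share was 72.4% ± 3.11 (SD, n = 3) in Bcl6 and 72.2% ± 15.1 (SD, n = 6) in Smc3/Bcl6 tumors, close means with a wider spread among the latter. Ccnd3 made up 25.9% ± 2.37 (SD, n = 3) and 26.0% ± 15.3 (SD, n = 6), and Ccnd1 1.75% ± 0.794 (SD, n = 3) and 1.70% ± 0.894 (SD, n = 6). Per principal transcript the mean share of Ccnd2 was 49.6% ± 3.47 (SD, n = 3) and 52.3% ± 18.8 (SD, n = 6).

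**Figure D2:**
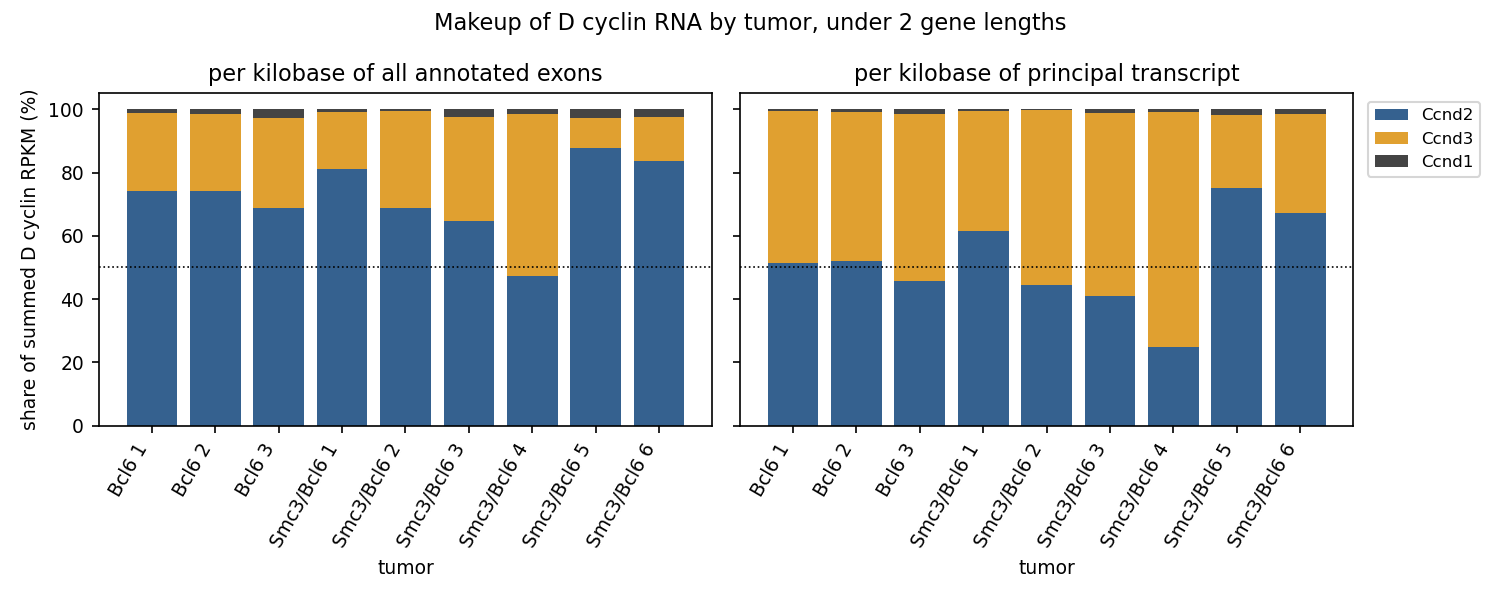
Share (%) of each D cyclin in their summed RPKM in each of the 9 tumors, with the length of all annotated exons on the left and of the principal transcript on the right, and a dotted line at 50%. Ccnd2 is the larger part in 8 tumors on the left and in 5 on the right.

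How the ratio of Ccnd2 to Ccnd3 differed between tumors does not depend on the length. In CPM the ratio was 3.20, 3.30 and 2.58 in the 3 Bcl6 tumors and 4.83, 2.40, 2.11, 0.996, 9.77 and 6.41 in the 6 Smc3/Bcl6 tumors, a 9.81-fold range. Of the 6 Smc3/Bcl6 tumors, 3 lay above the 3 Bcl6 tumors and 3 below them. The ratio was highest in Smc3/Bcl6 tumor 5, with the lowest Ccnd3, and lowest in Smc3/Bcl6 tumor 4, with the lowest Ccnd2.

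The genes whose log2 CPM followed each D cyclin most closely over the 9 tumors were named by Pearson's r, as a description. For Ccnd2 they were 2810025M15Rik (r = 0.92), Tmem140 (r = 0.91) and Gas2l1 (r = 0.91). For Ccnd3 they were AI429214 (r = 0.93, on 56 reads in all), Ckb (r = 0.93), a creatine kinase, and Serf2 (r = 0.91). For Ccnd1 they were Enpp4 (r = 0.95), Plxnd1 (r = 0.95), a semaphorin receptor, and Mgll (r = 0.94), a monoglyceride lipase. Without Smc3/Bcl6 tumor 2, the r of these 9 genes over 8 tumors lay between 0.88 and 0.96. The genes were picked from the 14057 tested by r over the same tumors, so high values here follow in part from that choice.

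Of the kinases, Cdk4 (ENSMUSG00000006728.7, chromosome 10, 127063534 to 127067920) had far more RNA than Cdk6 in every tumor. Cdk4 had 418, 253 and 219 CPM in the 3 Bcl6 tumors and 281, 835, 223, 146, 345 and 212 CPM in the 6 Smc3/Bcl6 tumors. Smc3/Bcl6 tumor 2 was far above the rest, and the other Smc3/Bcl6 tumors overlapped with the Bcl6 tumors. The means were 296 ± 106 CPM (SD, n = 3) and 340 ± 251.35 CPM (SD, n = 6), with a log2 fold change of 0.20 (SE 0.53, 95% interval -0.98 to 1.38, adjusted p = 1, exact permutation p = 0.952). With Smc3/Bcl6 tumor 2 left out it was -0.27, in the other direction, and with other tumors left out it ranged from 0.017 (Bcl6 tumor 3) to 0.45 (Bcl6 tumor 1). It was 0.34 with the replicate block. Cdk4 has 3249 bases of exons, and in that tumor its level was 1.74 above the mean of the other tumors on the log2 scale, against a median of 0.32 over the 200 genes nearest in length. Exons of Cdk4 and of Tspan31 on the opposite strand share 641 bases.

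Cdk6 (ENSMUSG00000040274.6, chromosome 5, 3341485 to 3531008) had 25.8, 31.2 and 33.8 CPM in the 3 Bcl6 tumors and 27.1, 27.1, 30.5, 13.3, 18 and 15.7 CPM in the 6 Smc3/Bcl6 tumors. Smc3/Bcl6 tumors 4, 5 and 6 lay below all Bcl6 tumors and the other 3 within their range. In the comparison of genotypes it had a log2 fold change of -0.46 (SE 0.31, 95% interval -1.16 to 0.23, adjusted p = 1, exact permutation p = 0.143), and it came to -0.13 with the replicate block and to -0.079 with an offset for exon length. With 1 tumor left out it ranged from -0.63 (without Bcl6 tumor 1) to -0.38, and passed the thresholds of the study only without Smc3/Bcl6 tumor 3 (-0.62). The paper names Cdk6 among genes whose enhancer-promoter loops were stronger in Smc3/Bcl6 tumors, by Hi-C, which measures DNA contacts and not RNA. How these loops relate to the RNA level was not tested. Per kilobase of exons, Cdk4 (45.0 to 257 RPKM) was 27.8 to 133 times the level of Cdk6 (0.951 to 2.42 RPKM), and per kilobase of coding sequence 6.95 to 33.1 times. The coding figures divide reads of all exons by coding bases alone. Smc3/Bcl6 tumor 2 gave the top of both ranges, and the next highest ratio over exons was 82.5, in Smc3/Bcl6 tumor 5. In tumor 2, genes near Cdk6 in length had a median log2 deviation of -1.68 from the other tumors, and Cdk6 itself 0.22. Cdk4 ranked first of the 10 genes in RPKM over exons in 8 tumors and was second to Ccnd2 in Smc3/Bcl6 tumor 6.

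Of the 3 inhibitors in the list, Cdkn2d, which encodes the INK4 protein p19Ink4d, had the highest level per length in every tumor. The inhibitor Cdkn1a, outside this list, was below Cdkn2d over exons in every tumor. Per principal transcript Cdkn1a was above Cdkn2d in Smc3/Bcl6 tumors 1 (36.9 against 32.7 RPKM) and 5 (30.9 against 29.2 RPKM). Cdkn2d (ENSMUSG00000096472.1, chromosome 9, 21288410 to 21291407) had 74.3, 94.7 and 72.4 CPM in the 3 Bcl6 tumors and 46.5, 103, 78.9, 61.4, 41.5 and 57.6 CPM in the 6 Smc3/Bcl6 tumors. In 4 of 6 Smc3/Bcl6 tumors it was below all Bcl6 tumors. Between genotypes the log2 fold change came to -0.31 (SE 0.30, 95% interval -0.99 to 0.37, adjusted p = 1, exact permutation p = 0.262), and it was -0.48 without Smc3/Bcl6 tumor 2, -0.21 without Bcl6 tumor 2 or Smc3/Bcl6 tumor 5, and -0.17 with the replicate block, never past the thresholds. In RPKM over exons (26.4 to 65.5) Cdkn2d made up 70.2% to 83.7% of the sum of the 3 inhibitors.

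Cdkn2c, the INK4 inhibitor p18 that restrains division of B cells on their way to plasma cells (ENSMUSG00000028551.9, chromosome 4, 109660876 to 109667189), had 44.0, 24.1 and 15.1 CPM in the 3 Bcl6 tumors and 16, 29.5, 24.1, 12.6, 20.1 and 19.3 CPM in the 6 Smc3/Bcl6 tumors. Bcl6 tumor 1 was the highest of the 9, and the rest of the tumors overlapped. The estimated log2 difference of Smc3/Bcl6 from Bcl6 tumors was -0.45 (SE 0.38, 95% interval -1.29 to 0.38, adjusted p = 1, exact permutation p = 0.405), and it rested on Bcl6 tumor 1, without which it was -0.010. It was -0.75 and past the thresholds of the study without Bcl6 tumor 3, and -0.18 with the replicate block.

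Cdkn1b, the CIP/KIP inhibitor p27 (ENSMUSG00000003031.9, chromosome 6, 134920401 to 134925513), had 13, 22.2 and 19.3 CPM in the 3 Bcl6 tumors and 12.6, 8.04, 12.4, 26.2, 17 and 17.3 CPM in the 6 Smc3/Bcl6 tumors. The highest and the lowest value were both in Smc3/Bcl6 tumors, numbers 4 and 2. In the comparison of genotypes it had a log2 fold change of -0.22 (SE 0.38, 95% interval -1.06 to 0.62, adjusted p = 1, exact permutation p = 0.524). That value was -0.080 without Smc3/Bcl6 tumor 2, -0.084 without Bcl6 tumor 2, -0.47 without Bcl6 tumor 1, -0.45 without Smc3/Bcl6 tumor 4 and -0.74 with the replicate block, and passed the thresholds in none of these fits. Cdkn1b was the lowest of the 3 inhibitors in the list per length of exons in 8 of 9 tumors, at 1.77 to 5.76 RPKM, against 4.68 to 16.4 RPKM for Cdkn2c.

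The pocket proteins were the targets of these kinases in the list, and Rbl1, which encodes p107, was the only one of the 10 genes past the thresholds of the study, against 2.15% of all genes tested. Rbl1 (ENSMUSG00000027641.8, chromosome 2, 157145893 to 157204534) had 126, 105 and 87.3 CPM in the 3 Bcl6 tumors and 82.3, 27.3, 91.8, 60.9, 74.9 and 69.4 CPM in the 6 Smc3/Bcl6 tumors. All 6 Smc3/Bcl6 tumors were below the Bcl6 mean, and the groups overlapped through Smc3/Bcl6 tumor 3, which was above Bcl6 tumor 3. The means were 106 ± 19.4 CPM (SD, n = 3) and 67.8 ± 22.5 CPM (SD, n = 6), with a log2 fold change of -0.65 (SE 0.34, 95% interval -1.40 to 0.10, edgeR unadjusted p = 0.0832 and adjusted p = 1, exact two-sided permutation p = 0.0476). This permutation p, not adjusted, is the lowest of the 10 genes, and 0.0238 is the smallest that the exact test can give in this design.

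The call of Rbl1 was lost in 6 of the 9 fits that left out 1 tumor. Its log2 fold change was -0.55 without Bcl6 tumor 1 and -0.65 without Bcl6 tumor 2, -0.47 without Smc3/Bcl6 tumor 2, which fails the threshold on size, and -0.61, -0.68 and -0.65 without Smc3/Bcl6 tumors 4, 5 and 6. With the replicate block, a fit that pairs tumors 1 to 3 of both genotypes by number, it was -0.85 and the call was lost as well. With an offset for exon length, the log2 fold change of Rbl1 was -0.62 and the call stayed (edgeR unadjusted p = 0.0373). Without Smc3/Bcl6 tumor 2, its edgeR unadjusted p was 0.0231 and its adjusted p 0.985. The direction was the same in each of these fits. In Smc3/Bcl6 tumor 2, the log2 level of Rbl1 differed from the mean of the other tumors by -1.64, against a median of -0.60 for the 200 genes nearest in length.

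Rb1 (ENSMUSG00000022105.6, chromosome 14, 73183673 to 73325822), the retinoblastoma gene, had 38.6, 25.3 and 36.8 CPM in the 3 Bcl6 tumors and 52.2, 6.77, 30, 42.1, 30.5 and 57.9 CPM in the 6 Smc3/Bcl6 tumors. Smc3/Bcl6 tumor 2 was far below the rest, and the other 5 Smc3/Bcl6 tumors were above Bcl6 tumor 2. Between genotypes the log2 fold change came to 0.13 (SE 0.52, 95% interval -1.04 to 1.29, adjusted p = 1, exact permutation p = 0.905), 0.35 without Smc3/Bcl6 tumor 2, and -0.59 with the replicate block. It was -0.058 without Bcl6 tumor 2, -0.00187 without Smc3/Bcl6 tumor 1 and -0.051 without Smc3/Bcl6 tumor 6. Exons of Rb1 overlap those of Rcbtb2 and Lpar6 on the opposite strand by 488 and 408 bases. Rbl1 had more RNA per length than Rb1 in all 9 tumors, by 1.2 to 4.17 times over exons.

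**Figure D3:**
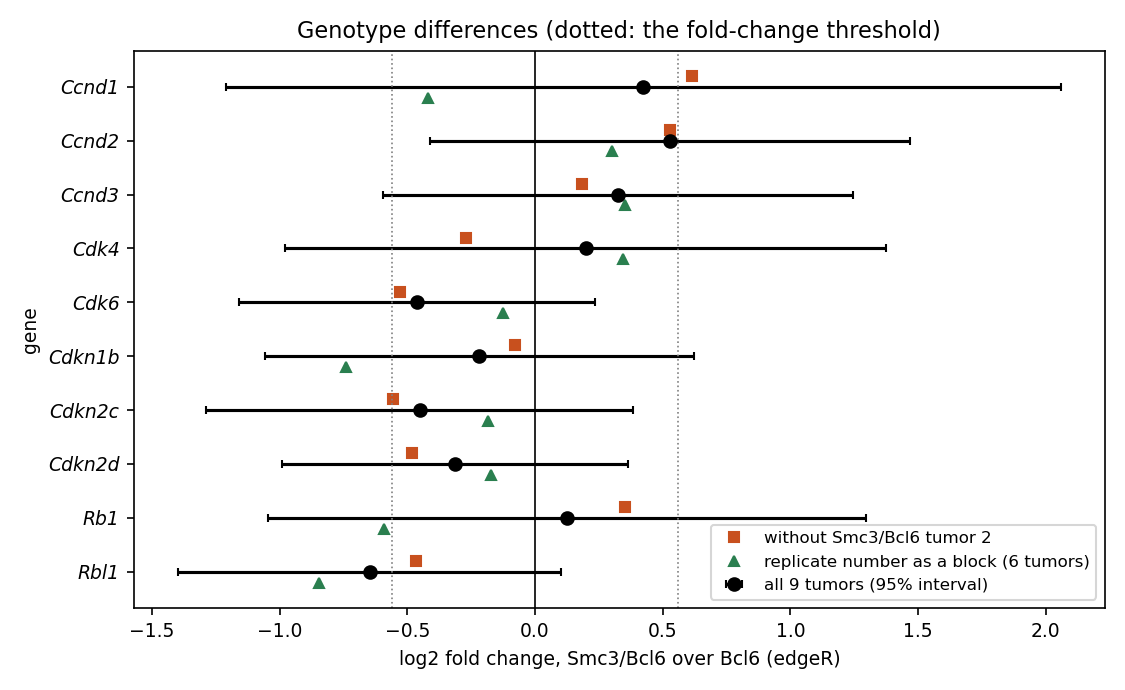
Log2 fold change of Smc3/Bcl6 over Bcl6 tumors for the 10 genes from edgeR. Black points and bars give the estimate and 95% interval over 9 tumors, orange squares the estimate without Smc3/Bcl6 tumor 2, green triangles the estimate with the replicate block over 6 tumors, and dotted lines the threshold of 0.56 in either direction. All 10 intervals include 0, Rbl1 (-0.65) is the only black point past a dotted line, and the squares or triangles of Ccnd1, Cdk4 and Rb1 cross 0.

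Over the 10 genes together, 0 were higher and 1 was lower in Smc3/Bcl6 tumors by the thresholds of the study, which 2.15% of all 14057 genes tested passed. With the replicate block 0 of the 10 passed, where 2.24% of all genes did, and without Smc3/Bcl6 tumor 2 again 0, where 3.82% did. Their median log2 fold change was -0.05, beside 0.06 over all genes tested. No gene reached an adjusted p below 0.05 with edgeR (0% of all genes, with 79 at an unadjusted p below 0.05 and 0 of the 10) or with DESeq2 (0 adjusted, 209 unadjusted). No member had groups that did not overlap, a separation found for 0.484% of all genes.

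The rest of the pathway was read from a list of 30 genes, of which 0 were higher and 2 lower by the thresholds of the study, which 2.15% of all genes passed, with a median log2 fold change of -0.08. Both are atypical E2F factors, which repress E2F target genes and are themselves induced by E2F in S phase. E2f7 had 22.9, 7.56 and 10.2 CPM in the 3 Bcl6 tumors and 7.28, 2.12, 6.01, 5.12, 4.26 and 5.20 CPM in the 6 Smc3/Bcl6 tumors, with no overlap between the groups, as in 0.484% of all genes tested. The estimated log2 difference of Smc3/Bcl6 from Bcl6 tumors was -1.44 (SE 0.46, edgeR unadjusted p = 0.0105 and adjusted p = 1, exact permutation p = 0.0238, the smallest possible). Groups without overlap always give this permutation p, so it repeats the lack of overlap. The log2 difference was -1.44 with the replicate block, -1.25 without Smc3/Bcl6 tumor 2, and -0.89 without Bcl6 tumor 1, which ended the call.

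E2f8 had 52.9, 20.7 and 25.4 CPM in the 3 Bcl6 tumors and 27.3, 13.8, 25, 20.4, 13.5 and 21 CPM in the 6 Smc3/Bcl6 tumors, with Bcl6 tumor 1 far above the others and the groups overlapping. In the comparison of genotypes it had a log2 fold change of -0.71 (SE 0.36, adjusted p = 1, exact permutation p = 0.190), and its call was lost with the replicate block (-0.56) and without Bcl6 tumor 1 (-0.26) or Smc3/Bcl6 tumor 2 (-0.60), 5 (-0.62) or 6 (-0.72). Summed markers of cycling cells (8 genes) were 1956, 1199 and 1156 CPM in the 3 Bcl6 tumors and 1238, 1646, 1084, 556, 1001 and 833 CPM in the 6 Smc3/Bcl6 tumors. Of the 8, 1 (Top2a) was lower by the thresholds, which 2.15% of all genes passed. Without Smc3/Bcl6 tumor 2, where 3.82% of all genes passed, 3 of the 8 did (Top2a, Mcm5 and Birc5, all lower). The median log2 fold change of the 8 was then -0.62 in place of -0.33. With the replicate block, where 2.24% of all genes passed, 2 of the 8 did (Mki67 and Top2a, lower), and the median was 0.045. Bcl6 tumor 1, the highest for Rbl1, E2f7 and E2f8, also had the highest sum of these markers, and their part in the 3 genes was not tested.

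**Figure D4:**
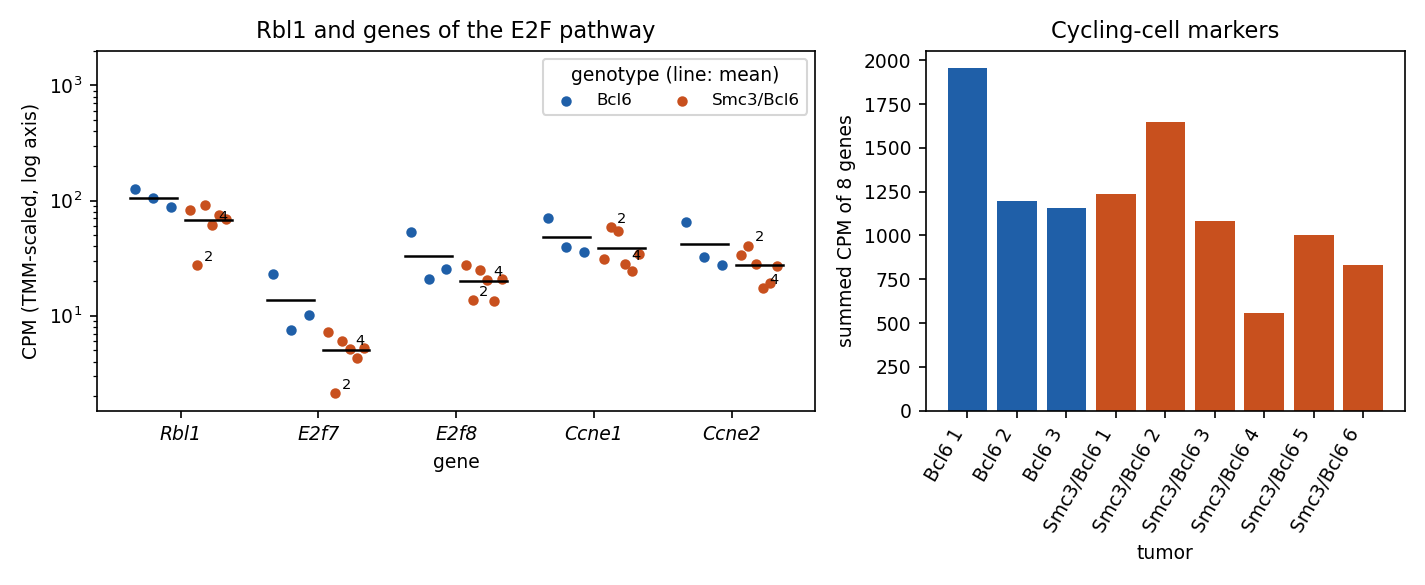
Left, CPM of Rbl1, E2f7, E2f8, Ccne1 and Ccne2 in each tumor on a log axis, with a line at the mean of each genotype and Smc3/Bcl6 tumors 2 and 4 numbered. Right, summed CPM of 8 markers of cycling cells by tumor (bars from 0). E2f7 is the only one of the 5 genes whose groups do not overlap, and Bcl6 tumor 1 is highest for all 5 genes and for the cycling markers (1956 CPM).

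The cyclin E genes, which act with Cdk2 after the D cyclins, did not pass the thresholds. The log2 fold change was -0.33 for Ccne1 (SE 0.36), -0.59 for Ccne2 (SE 0.36) and -0.24 for Cdk2 (SE 0.29). Without Smc3/Bcl6 tumor 2, where 3.82% of all genes passed, 3 of the 30 genes were lower, E2f7, Ccne2 (-0.71) and Ccna2 (-0.77), the last named after its values had been seen. Rbl2, the third pocket protein, p130, had 150, 189 and 275 CPM in the 3 Bcl6 tumors and 179, 39.8, 224, 164, 170 and 200 CPM in the 6 Smc3/Bcl6 tumors (log2 fold change -0.33, SE 0.45, and -0.13 without Smc3/Bcl6 tumor 2). Rbl2 had the highest level per length of the 3 pocket proteins in 8 of 9 tumors over exons, and Rbl1 in Bcl6 tumor 1.

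The other inhibitors varied widely between tumors, with no difference past the thresholds over all 9 tumors in edgeR. Cdkn1a, the p53 target p21, had 74.4, 75.2 and 78.4 CPM in the 3 Bcl6 tumors and 76.8, 142, 106, 7.19, 64.2 and 34.9 CPM in the 6 Smc3/Bcl6 tumors. The Bcl6 tumors were close together, Smc3/Bcl6 tumor 4 was lowest and tumor 2 highest, with a log2 fold change of -0.08 (SE 0.66), or -0.38 without tumor 2. Cdkn2a, the locus of p16 and p19Arf, had 2.16 to 4.06 CPM in Bcl6 tumors and 0.133 to 5.13 CPM in Smc3/Bcl6 tumors, lowest again in Smc3/Bcl6 tumor 4 (log2 fold change -0.10, SE 0.82). Cdkn2b, its neighbor, had 2.91 to 4.05 CPM and 2.99 to 10.6 CPM (log2 fold change 0.54, SE 0.47). Cdkn1c, the CIP/KIP inhibitor p57, had 4 to 7 reads in Bcl6 tumors and 0 to 130 in Smc3/Bcl6 tumors, with 130 in tumor 6 and at most 23 in each of the others (log2 fold change 2.24, SE 1.47). It passed the thresholds with DESeq2 and in edgeR without Smc3/Bcl6 tumor 5, where it is at 0 reads. Without Smc3/Bcl6 tumor 1, 4 or 6, or with the replicate block, Cdkn1c did not pass the filter on low counts. Whether the difference holds without the 130 reads of tumor 6 was therefore not tested.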

How the data were processed

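The authors prepared TruSeq RNA libraries of 9 lymphomas, aligned the reads to mm10 with STAR, and deposited raw read counts per gene from featureCounts with Gencode genes. The table had 0 columns outside these samples. Positions and lengths came from GENCODE M21 (GRCm38), which held 97.9% of the rows.

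Genotypes were compared over the genes that edgeR's low-count filter kept (edgeR 4.0.16, R 4.3.3, TMM, quasi-likelihood test, no covariate, Benjamini-Hochberg adjustment). The thresholds of the study are p under 0.1 before adjustment and a log2 fold change beyond 0.56. The study applied them with DESeq2, so the counts of genes past them in edgeR are not the counts of the study. Log2 CPM used a prior count of 2, exact permutation tests ran over the 84 splits of the tumors, and RPKM were TMM-scaled CPM per kilobase. Library totals of 10156728 to 17774577 set the counting error. 

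Alternatives were DESeq2 1.42.0, its size factors, no filter, the tissue label, an exon length offset, each tumor left out, other lengths, and the replicate number as a block in tumors 1 to 3. Deviations of tumors with the same number correlated at 0.44, 0.11 and 0.16, and this pairing rests on the labels alone. The main edgeR fit and DESeq2 were tested on simulated data with changes larger than those of the members. The other fits were not, and the simulation does not cover changes of the size seen in the members. The members, lists and tests were chosen with earlier results of these data known. Genes named are the members, other inhibitors, Rbl2, Ccne1, Ccne2, Cdk2, pathway genes past the thresholds in all tumors or with the block, and the 3 genes most correlated with each D cyclin.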

Additional observations from a re-analysis of the deposited data

Results flagged for a closer look

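Among the 6 Smc3/Bcl6 tumors, tumor 2 lay far from the others in log2 CPM for Rb1 (6.77 CPM, a gap to the nearest tumor of 0.692 of the whole range) and for Rbl1 (27.3 CPM, a gap of 0.661). Both exceed the limit of Dixon's test for 6 samples. Of 13 values examined in this way, 2 passed, and chance passes about 1 in 20. The other 5 Smc3/Bcl6 tumors had at least 29.98 and at most 57.9 CPM of Rb1 and 60.9 to 91.8 CPM of Rbl1. Genes near Rb1 in length had a median log2 deviation of -0.57 from the other tumors there, against -2.46 for Rb1, and the cause was not tested.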

How the results depend on the processing

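The count of members past the thresholds of the study, 1 in all tumors, was 0 with the tissue label as a covariate, 0 with the replicate block, and 0 to 2 with 1 tumor left out. Of the 30 other pathway genes, 2 passed in all tumors and 1 with the tissue label. With the replicate block, 1 of the 29 tested passed. The count was 3 with DESeq2 (Cdkn1c added), 3 with the exon length offset (Ccne2 added) and 0 to 3 with 1 tumor left out. The count over all genes tested moved as well. It was 302 of 14057 in all tumors, 322 of 14057 with the tissue label and 299 of 13360 with the replicate block. DESeq2 gave 443 of 14057 and the exon length offset 328 of 13975. With 1 tumor left out, 159 of 13868 to 624 of 13830 genes passed. With the replicate block, the log2 fold change turned to -0.42 for Ccnd1 and -0.59 for Rb1. With 1 tumor left out, it ranged from -0.27 to 0.45 for Cdk4, -0.058 to 0.352 for Rb1 and -0.77 to -0.47 for Rbl1. No member reached an adjusted p below 0.05 in any of the 15 alternative fits. DESeq2, its size factors, no filter and the exon length offset left the 1 call of Rbl1 in place. DESeq2 size factors moved the median log2 fold change of all genes by 0.03.

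The makeup of the D cyclins depended on the gene length used. Ccnd3 was highest in 0 tumors per coding length, and per principal transcript Ccnd2 was highest in 5 and Ccnd3 in 4 tumors. The coding length leaves out bases from which reads were also counted, so it does not correct for transcript length. The mean share of Ccnd2 in Bcl6 tumors was 75.5% per coding length and 49.6% per principal transcript, and in Smc3/Bcl6 tumors 52.3% per principal transcript, with Ccnd3 at 49.4% and 46.7%. Ccnd1, on 12 to 142 reads, is the member that depth limits most. Whether reads of overlapping genes were assigned by strand was not given in the sources used here.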
